A study of Rattus norvegicus with 18 samples.

Results

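The genes of the cytosolic ribosome were followed in 18 RNA-seq libraries of neonatal rat ventricular cardiomyocytes, primary muscle cells taken from Sprague-Dawley rats on postnatal day 2. They were chosen by symbol alone: Rpl or Rps followed by a number and, where present, the letter a, x or y, together with Rplp0, Rplp1, Rplp2 and Rpsa. The rule found 78 of the 19880 genes in the deposited table, 46 of the large and 32 of the small subunit, under 77 symbols, because Rps19 stands on 2 genes. All 78 passed the filter on low counts.

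The 3 short open reading frames under study, called sORF6, sORF7 and sORF8, were each delivered by an adenovirus and set against a control virus of their own, which gave 6 groups of 3 libraries: sORF6 virus, sORF6 control virus, sORF7 virus, sORF7 control virus, sORF8 virus and sORF8 control virus. Every group, the controls included, had been given 20 µM phenylephrine, a drug that acts on adrenergic receptors and makes heart muscle cells grow, during 24 h, so no group shows cells without it. Non-cardiomyocytes were reduced by plating for 1 h, per the labels, and total RNA was extracted with Trizol. The labels give neither the sequence nor the product of a sORF, do not say what the control viruses carry, and leave unsaid whether libraries of the same group come from separate cultures. The p-values therefore rest on the spread between libraries alone, and that spread may be technical.

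Ribosomal proteins and ribosomal RNA form the 2 subunits that decode messenger RNA and join amino acids. The small subunit reads the message, the large subunit holds the peptidyl transferase centre and the exit tunnel, and the P stalk of the large subunit recruits elongation factors. Cells make these proteins in near equal amounts from many single genes, and many of their messenger RNAs begin with a 5′ terminal oligopyrimidine (TOP) tract, a C followed by a run of C and T (U in the RNA) that links their translation to mTOR and LARP1. Hypertrophic growth of cardiomyocytes is known to go with more ribosome production.

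The bases around the start of transcription show this tract, and are given for 6 genes that the results below turn on, with 40 bases before the annotated start and 20 from it. They come from RefSeq on build GRCr8, while the expression table uses Rnor_6.0. Capitals mark the unbroken run of C and T from the start.
Rpl28, chr1:78083513-78083572, minus strand: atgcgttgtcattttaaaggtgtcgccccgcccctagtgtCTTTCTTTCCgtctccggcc
Rpl9, chr14:43247550-43247609, plus strand: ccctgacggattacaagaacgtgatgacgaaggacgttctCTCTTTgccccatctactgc
Rplp0, chr12:46718371-46718430, minus strand: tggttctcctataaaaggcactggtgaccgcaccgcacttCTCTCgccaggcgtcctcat
Rps2, chr10:14251808-14251867, plus strand: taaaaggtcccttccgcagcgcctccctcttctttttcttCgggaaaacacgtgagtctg
Rpl4, chr8:73566437-73566496, plus strand: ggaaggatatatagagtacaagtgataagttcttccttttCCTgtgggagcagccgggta
Rpl3, chr7:113507971-113508030, minus strand: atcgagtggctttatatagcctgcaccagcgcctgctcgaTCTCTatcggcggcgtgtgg
Rpl28, Rpl9 and Rplp0 begin with a C and at least 4 more pyrimidines. Rps2, Rpl4 and Rpl3 do not in this annotation, although in Rps2 and Rpl4 a pyrimidine tract before the start runs on into it. Of the 77 symbols, 62 had a promoter in the RefSeq table, and 24 of these (38.7%) began with a C followed by at least 4 C or T, against 3.11% of all 27457 genes of the table. The letters CCGGAA, which resemble the core of ETS factor sites, stood on either strand in the 250 bases before the start of 24 of the 62 (38.7%), against 14.1% of all genes. A match describes letters and not a site in use.

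The table counted 15697177 to 17658137 estimated reads per library, with the lowest totals in the sORF8 control virus libraries. 2 control libraries stood apart from their groups: sORF6 control virus replicate 2 differed from its partners with a chi-square per degree of freedom of 11.2 and 11.4, where the 2 partners differed by 3.85, and sORF7 control virus replicate 1 with 6.51 and 7.28, against 4.13 between its partners. The other groups ran from 2.75 to 3.91. Of 10 cardiomyocyte marker genes none was at 0 in any group, and their summed level exceeded that of the fibroblast markers in every library, 38347 to 66501 normalised CPM (CPM, counts scaled to a TMM-adjusted library size), against 7502 to 9204 for 9 fibroblast markers. In bulk RNA, fewer cells of a type and less RNA per cell cannot be told apart.

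The 78 genes took 2.95% to 3.13% of the counts of sORF6 virus libraries and 2.98% to 3.38% of those of sORF6 control virus libraries. They took 3.41% to 3.43% in sORF7 virus libraries and 3.10% to 3.45% in sORF7 control virus libraries. The shares were higher in the sORF8 experiment, 3.55% to 3.69% in sORF8 virus libraries and 3.95% to 3.97% in sORF8 control virus libraries. Only in this last pair did the virus and control libraries not overlap, and there the virus libraries lay below. The highest sORF6 control value, 3.38%, was that of replicate 2, the library that stood apart, and the lowest sORF7 control value, 3.10%, that of replicate 1.

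**Figure D1:**
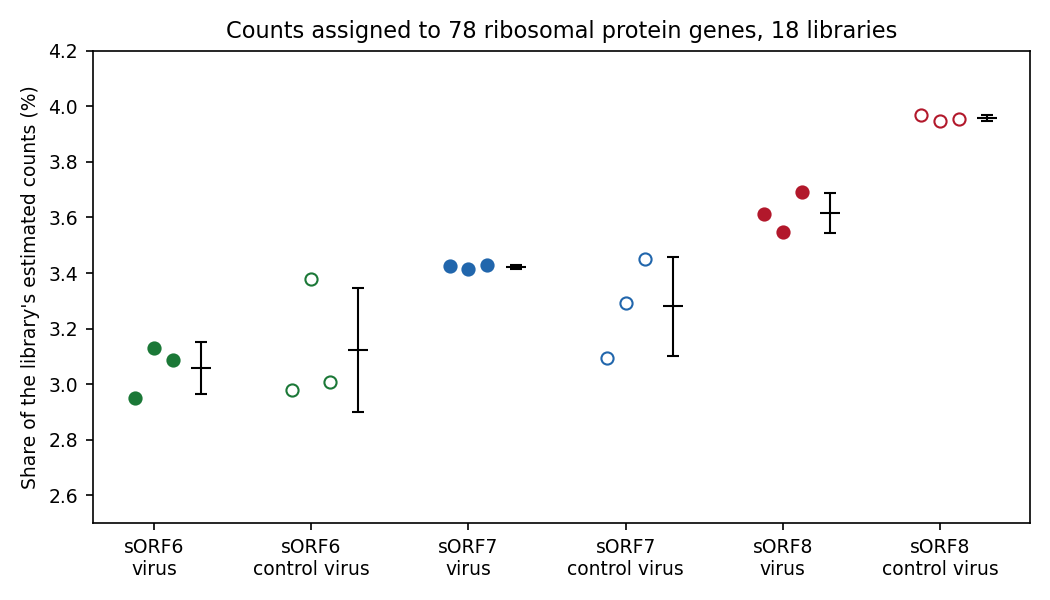
Share of each library's estimated counts (in %) that fell on the 78 ribosomal protein genes, by group, with the vertical axis starting above 0. Each point is 1 library, filled for sORF viruses and open for control viruses, and the bar is the mean ± SD of 3. The sORF8 control virus libraries (3.95% to 3.97%) lie above all others, and the sORF8 virus libraries (3.55% to 3.69%) lie between them and the other 4 groups.

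The balance between the subunits differed little. Summed small subunit counts were 0.692 ± 0.007 of the large subunit counts in sORF6 virus libraries and 0.691 ± 0.010 in sORF6 control virus libraries (SD, n = 3 each). The ratios were 0.694 ± 0.013 with sORF7 virus and 0.702 ± 0.005 with its control virus, and 0.689 ± 0.010 with sORF8 virus and 0.696 ± 0.003 with its control virus. The differences between groups were no larger than 0.013, the size of the largest spread within one.

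Per length, the ribosomal protein genes were among the most abundant in these cells. Their mean FPKM (the authors' values, fragments scaled by transcript length and library size) over 18 libraries had a median of 655, the interquartile range ran from 515 to 879, and 76 of the 78 were among the 500 genes of highest FPKM. The large and small subunit medians were 655 and 657. Their transcripts are short, with a median effective length of 531 bases against 2550 over all genes tested.

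The highest level was that of Rps2, a small subunit protein at the entry of the mRNA channel, with 1298 ± 27.5 FPKM in sORF6 virus cells and 1345 ± 61.7 in sORF6 control virus cells, 1559 ± 14.4 with sORF7 virus and 1438 ± 103 with its control virus, and 1710.5 ± 35.0 with sORF8 virus and 1981 ± 32.1 with its control virus (SD, n = 3 each). Rplp0, the base of the P stalk, averaged 1357 FPKM over the 18 libraries with an SD of 153, and Rps6, the protein that S6 kinases phosphorylate downstream of mTOR, 1307 with an SD of 133. Rps24, a small subunit protein, followed with 1201 and an SD of 74.2. The step from Rplp0 to Rps6 is smaller than either SD, and the step from Rps6 to Rps24 is smaller than the SD of Rps6 only. Those SDs span all 6 groups and take no account of the genes being measured in the same libraries, so they do not settle the order. In most libraries Rplp0 was above Rps6 and Rps6 above Rps24.

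At the low end stood Rpl30 with 178 FPKM (SD 20.6, n = 18), Rps28 with 168 (SD 15.5), the second Rps19 gene (gene 108348115, chromosome 1) with 124 (SD 42.5) and Rpl35a with 9.31 (SD 15.3). Rpl30 and Rps28 overlap in their spread. The second Rps19 gene, Rpl35a and Rpl30 each have a copy that holds more counts than they do, so that these levels are uncertain; for Rpl30 it is LOC100362027, with 37498 counts over all libraries against 23708 for Rpl30. Without Rpl35a, the highest and the lowest level differed 12.6-fold.

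**Figure D2:**
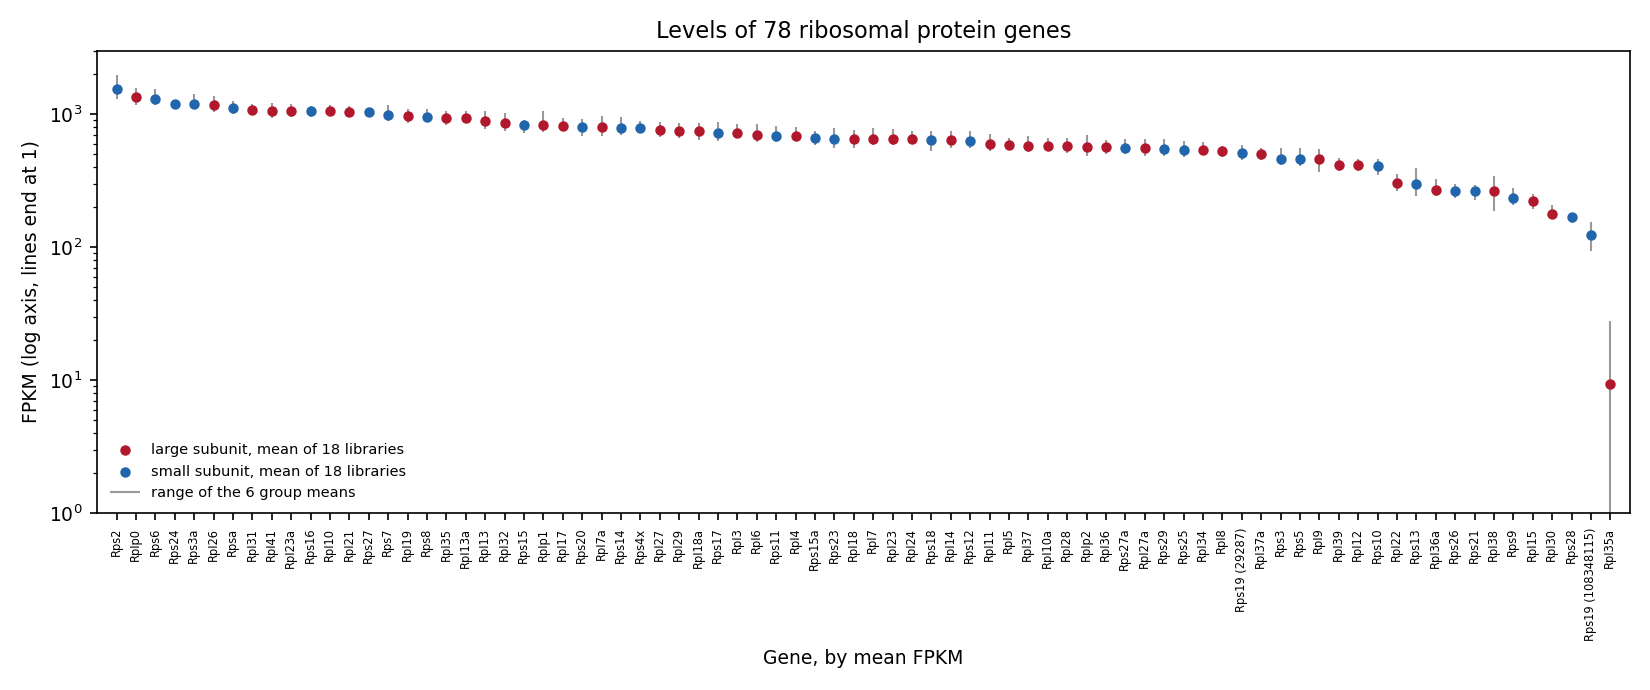
Mean FPKM over 18 libraries of the 78 genes in falling order, on a log axis, with large subunit genes in red and small subunit genes in blue. Grey lines span the 6 group means and stop at 1 FPKM where a group mean is lower. Levels fall gently from Rps2 (1555) to the second Rps19 gene (124), and Rpl35a (9.31) stands alone.

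Many rat ribosomal protein genes have near-identical copies, and estimated counts can be divided among them. The table holds 125 other genes that carry the same ribosomal protein in their description or orthology entry, for 50 of the 77 proteins, and together they hold 6.46% as many counts as the 78 genes. For 1 pair the division was exact: Rps9, a small subunit protein at the mRNA entry channel, and Rps9l1 had equal counts within 0.01 in all 18 libraries. Rpl35a, a large subunit protein, was listed at 0 in all 3 sORF6 virus libraries and had 4.31, 0.927 and 0 normalised CPM in sORF6 control virus libraries. With its copies summed, the same protein had 216, 244 and 216 normalised CPM in sORF6 virus cells, against 213, 251 and 223 normalised CPM in sORF6 control virus cells. Its own values therefore carry no fold change here.

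Rps18, a protein of the small subunit head, shows the same at a higher level. It had 344, 156 and 351 normalised CPM in sORF8 virus cells, against 393, 362 and 399 normalised CPM in sORF8 control virus cells, with 1 virus library far below the others. In that library its copy LOC100360679 had 216 normalised CPM, against 34.5 and 35.5 in its partners. The sum of Rps18 and its copy had 378, 372 and 386 normalised CPM in sORF8 virus cells, against 408, 413 and 436 normalised CPM in sORF8 control virus cells, so that the low library moved back into line. For this reason each count below is given for the genes alone and, where it differs, for the 77 proteins with copies summed, an alternative added after seeing the data.

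The first comparison asked what sORF6 virus changed. By the quasi-likelihood test of edgeR, no ribosomal protein gene rose or fell (p under 0.05 after Benjamini-Hochberg adjustment over the 14870 genes tested). Of all genes tested, 3.85% passed, 0.968% higher and 2.88% lower. At an unadjusted p under 0.05 the members were 0 higher and 3 lower (6.58% and 8.65% of all genes), and DESeq2 and limma also called 0. With copies summed 0 of 77 proteins passed, beside 3.93% of all entries tested in that form. The median log2 fold change over the 78 was -0.02, beside 0.00 over all genes, and 56 of 78 were below 0 (49.7% of all genes). For no member did the virus and control libraries separate, above or below (10% and 10.6% of all genes).

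The members with the smallest p were Rpl35a, described above, Rpl18 and Rps23. Rpl18, a large subunit protein (gene 81766, chromosome 1, 101700910 to 101703551, plus strand, Rnor_6.0 as for all positions below), had 333, 364 and 338 normalised CPM in sORF6 virus cells, against 365, 404 and 355 normalised CPM in sORF6 control virus cells. The libraries overlapped, and the log2 fold change was -0.12 ± 0.05 (SE), with a 95% interval of -0.23 to -0.01 and an edgeR adjusted p of 0.282. Rps23, a protein of the decoding centre (gene 124323, chromosome 2, 19823234 to 19824809, plus strand), had 254, 291 and 272 normalised CPM in sORF6 virus cells, against 281, 332 and 276 normalised CPM in sORF6 control virus cells. Its log2 fold change was -0.12 ± 0.06, with an interval of -0.24 to -0.00 and an edgeR adjusted p of 0.31. The median changed sign to 0.04 without sORF6 control virus replicate 2, the library that stood apart, to 0.0024 without virus replicate 1, and to 0.03 with a trend on transcript length removed.

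Few other genes of protein synthesis passed with sORF6 virus. Of 28 initiation factors, 18 other genes with TOP messenger RNAs, 24 genes of RNA polymerase I and III and 20 regulators of mTOR and LARP1, 0 passed in either direction by edgeR. The polymerase list holds subunits together with transcription factors and regulators of these polymerases. At an unadjusted p under 0.05 the counts higher and lower were 1 and 2 of the initiation factors, 0 and 0 of the TOP genes, 1 and 2 of the polymerase list and 2 and 2 of the regulators. Of 48 ribosome biogenesis genes 9 were lower and 0 higher at an unadjusted p under 0.05 (8.65% of all genes lower), and 1 fell, Fbl, the methyltransferase fibrillarin that acts on ribosomal RNA (log2 fold change -0.26, edgeR adjusted p 0.0198), and of 14 ribosome quality control genes 1 fell, Pelo, which rescues stalled ribosomes (-0.21, edgeR adjusted p 0.0307). Summed cardiomyocyte markers ran from 63250 to 66501 normalised CPM in sORF6 virus libraries and from 60322 to 64861 in sORF6 control virus libraries, which overlap. Fibroblast markers did not overlap, with 8692 to 9204 in sORF6 virus libraries and 7737 to 8528 in sORF6 control virus libraries, nor did smooth muscle markers (2972 to 3112 with sORF6 virus and 2771 to 2883 with its control virus) and leukocyte markers (119.5 to 133 with sORF6 virus and 140.3 to 160.3 with its control virus). Within the fibroblast, smooth muscle and leukocyte lists single genes went both ways. At an unadjusted p under 0.05 the counts higher and lower were 3 and 1, 2 and 1, and 3 and 4. By edgeR 1 fibroblast marker rose and 1 fell, 0 smooth muscle markers passed, and 0 leukocyte markers rose and 2 fell. Summed Schwann markers were also higher in sORF6 virus libraries without overlap, and summed erythroid markers lower. The part of these markers in the result was not tested.

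With sORF7 virus, 3 members rose and 0 fell, all 3 of the large subunit, where 4.12% of all genes tested rose and 3.66% fell. The share of the members that rose, 3.85%, was near that background. The median log2 fold change was 0.03, beside 0.00 over all genes, and 54 of 78 were above 0 (49.2% of all genes). For 11 of 78 the virus libraries lay above the control libraries without overlap, 14.1% beside 11.7% of all genes. The median turned to -0.0040 without sORF7 control virus replicate 1 and to -0.0085 with a trend on transcript length removed.

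Rpl38, a large subunit protein that mouse embryos need for the translation of certain Hox messenger RNAs (gene 689284, chromosome 10, 103198424 to 103202059, plus strand), had 89.9, 96.1 and 94.1 normalised CPM in sORF7 virus cells, against 47.6, 49.3 and 56.3 normalised CPM in sORF7 control virus cells. All virus libraries were above all control libraries, and the log2 fold change was 0.87 ± 0.11, at an adjusted p of 8.85e-05 by edgeR. Its copy LOC690468 went the other way, with 17.5, 26.9 and 24.2 normalised CPM in sORF7 virus cells, against 42.2, 53.6 and 41.3 normalised CPM in sORF7 control virus cells. The sum of Rpl38 and its copies had 109, 123 and 119.6 normalised CPM in sORF7 virus cells, against 90.1, 103 and 98.0 normalised CPM in sORF7 control virus cells. Summed, the groups still did not overlap, but the log2 fold change was 0.27 ± 0.09 and the edgeR adjusted p 0.0628.

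Rpl9, a large subunit protein near the P stalk (gene 29257, chromosome 14, 44524251 to 44594386, plus strand), had 349.7, 351 and 316 normalised CPM in sORF7 virus cells, against 236, 211 and 294 normalised CPM in sORF7 control virus cells. The groups did not overlap, the log2 fold change was 0.46 ± 0.10 and the edgeR adjusted p 0.00765. Its copy LOC100360449 had 138, 121 and 176 normalised CPM in sORF7 virus cells, against 238, 276 and 230.4 normalised CPM in sORF7 control virus cells. With copies summed, Rpl9 had 493, 474 and 494 normalised CPM in sORF7 virus cells, against 481, 492 and 531 normalised CPM in sORF7 control virus cells, the groups overlapped, and the log2 fold change was -0.04 ± 0.04, at an adjusted p of 0.665 by edgeR.

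Rpl28, a large subunit protein that budding yeast lacks (gene 64638, chromosome 1, 72619282 to 72621941, minus strand), has copies with few counts. It had 334, 351 and 336 normalised CPM in sORF7 virus cells, against 253, 314 and 310.4 normalised CPM in sORF7 control virus cells, so that the virus libraries lay above the control libraries, of which replicate 1 was lowest. The log2 fold change was 0.22 ± 0.06, at an adjusted p of 0.0398 by edgeR, and it was the 1 of 77 proteins called with copies summed (edgeR adjusted p 0.0365), beside 7.77% of all entries tested in that form. Without sORF7 control virus replicate 1, the library that stood apart, the log2 fold change was 0.13 (edgeR adjusted p 0.133), and leaving out virus replicate 1, 2 or 3 gave adjusted p-values of 0.079, 0.137 and 0.079.

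**Figure D3:**
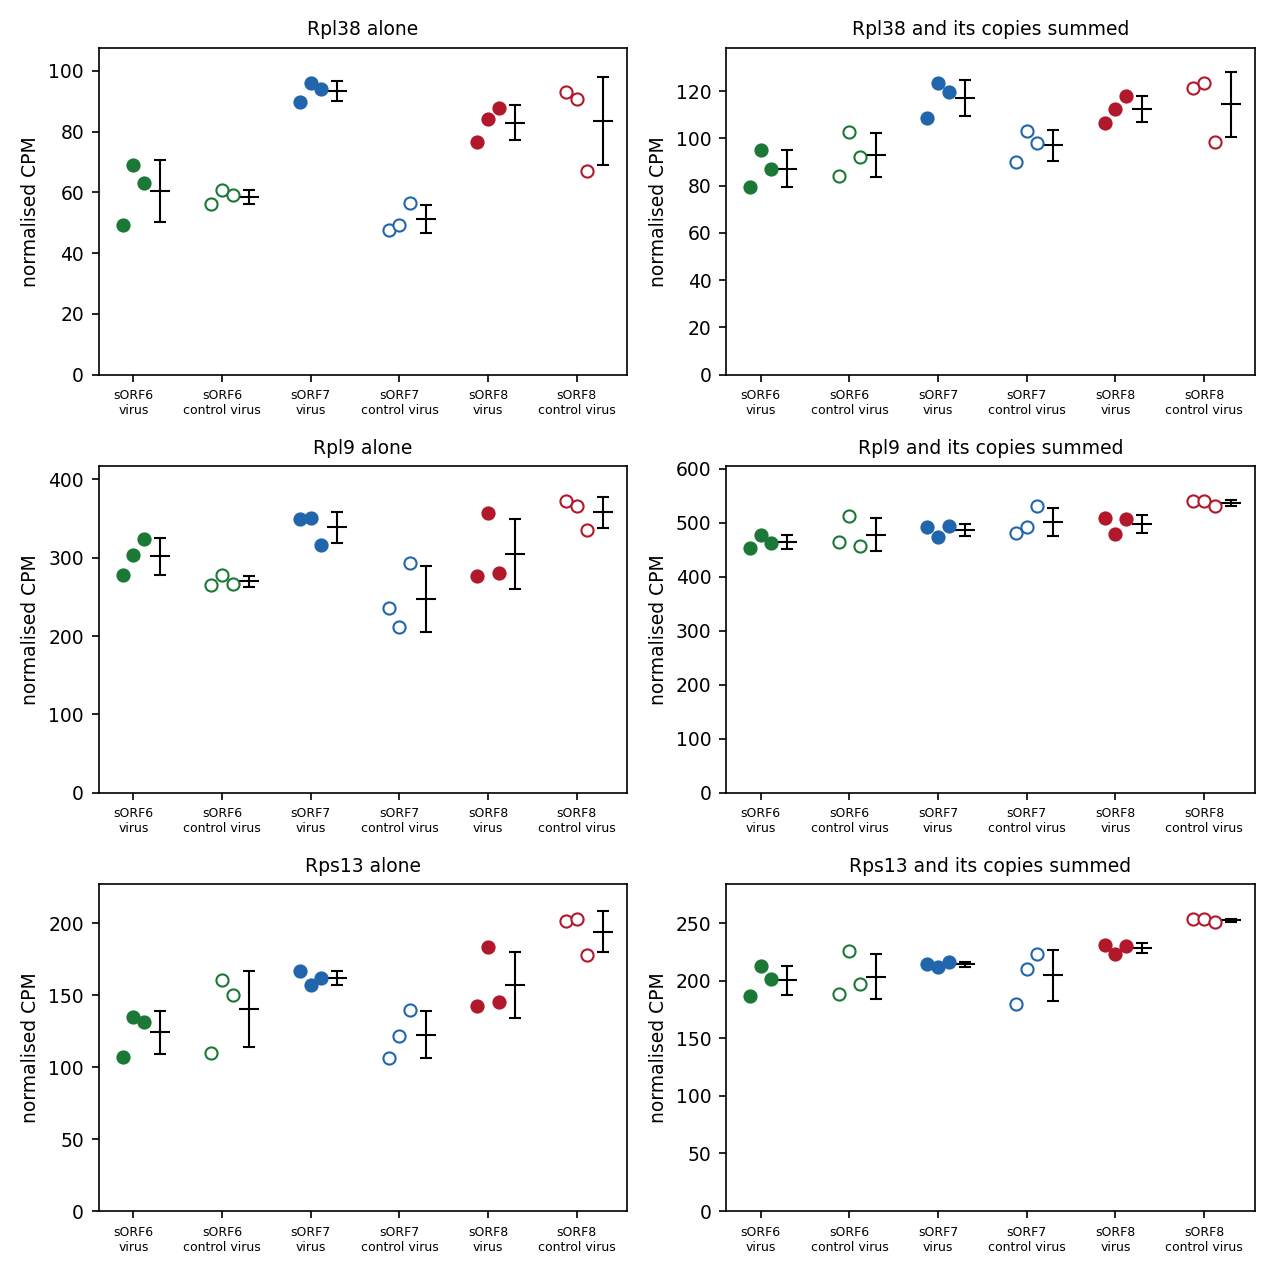
Normalised CPM of Rpl38, Rpl9 and Rps13 in 18 libraries, each gene alone on the left and summed with its copies on the right. Each point is 1 library, filled for sORF viruses and open for control viruses, with the mean ± SD of 3 and axes that start at 0. The gap between sORF7 virus and its control virus that Rpl9 shows alone (log2 fold change 0.46) is -0.04 in the sum.

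Around them, few genes of the translation machinery passed the test with sORF7 virus, where 4.12% of all genes rose and 3.66% fell. Of 28 translation initiation factors 1 rose, Eif5, which triggers GTP hydrolysis by eIF2 at the start codon (log2 fold change 0.15, edgeR adjusted p 0.025), and 0 fell. Of 18 other genes with TOP messenger RNAs 1 fell, Eef1a1, the elongation factor that brings in aminoacyl-tRNA (-0.11, edgeR adjusted p 0.0293), and of 48 ribosome biogenesis genes 0 passed (6 higher and 1 lower at an unadjusted p under 0.05). The share of all genes at that unadjusted threshold is not given here, so these 2 counts cannot be set against it. Of 20 regulators of mTOR and LARP1 3 rose and 1 fell, among them Sesn2, an inhibitor of mTORC1 (0.23), and Myc, a driver of ribosome biogenesis (0.28). Of 14 ribosome quality control genes 2 rose, Ascc3 (0.46) and Pelo (0.23), and of 75 mitochondrial ribosomal protein genes 1 rose, Mrps12 (0.26). Cardiomyocyte markers had a summed level of 51775 to 53435 normalised CPM in sORF7 virus libraries and 57581 to 61187 in sORF7 control virus libraries, without overlap, and 2 of 10 fell. Fibroblast markers had 7502 to 7854 in sORF7 virus libraries and 7884 to 8790 in sORF7 control virus libraries, also without overlap, and 3 of 9 fell. The part of both lists in the result was not tested.

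With sORF8 virus the ribosomal protein genes were lower as a group by a small step. Of 78, 7 fell and 0 rose, 8.97% beside 1.72% of all genes tested that fell and 2.03% that rose. The median log2 fold change was -0.12, which is 0.923-fold, beside 0.00 over all genes, and 71 of 78 were below 0 (49.7% of all genes). At an unadjusted p under 0.05, 38 were lower, beside 8.33% of all genes. For 58 of 78 all virus libraries lay below all control libraries, 74.4% beside 12.9% of all genes, and for 0 they lay above (11.6%). The size was alike in both subunits, with median log2 fold changes of -0.11 over 46 large and -0.12 over 32 small subunit genes. Summing copies gave 7 called proteins of 77 as well, with a median of -0.11, beside 3.74% of all entries tested in that form.

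Rps2, a protein of the mRNA entry channel (gene 83789, chromosome 10, 14088171 to 14090020, plus strand), had 1565, 1517 and 1584 normalised CPM in sORF8 virus cells, against 1782, 1761 and 1819 normalised CPM in sORF8 control virus cells. The groups did not overlap, the log2 fold change was -0.20 ± 0.04 with a 95% interval of -0.29 to -0.11, and the edgeR adjusted p was 0.0102. Rps3, which lines the same channel (gene 140654, chromosome 1, 164434584 to 164441167, minus strand), had 399.5, 374 and 392 normalised CPM in sORF8 virus cells, against 434, 439 and 447 normalised CPM in sORF8 control virus cells. Its log2 fold change was -0.18 ± 0.04, at an adjusted p of 0.0274 by edgeR. These were the small subunit genes among the 7.

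The 5 large subunit genes fell by less than Rps2 and without overlap between groups. Rpl4, which lines the exit tunnel (gene 64302, chromosome 8, 69121682 to 69126805, plus strand), had 1015, 986 and 1016 normalised CPM in sORF8 virus cells, against 1079.9, 1087 and 1111 normalised CPM in sORF8 control virus cells, a log2 fold change of -0.12 ± 0.03 at an adjusted p of 0.0354 by edgeR. Rpl3, which reaches towards the peptidyl transferase centre (gene 300079, chromosome 7, 121297365 to 121311565, minus strand), had 970.4, 928 and 978 normalised CPM in sORF8 virus cells, against 1040.4, 1050.3 and 1068 normalised CPM in sORF8 control virus cells, a log2 fold change of -0.14 ± 0.04. The remaining genes, all proteins of the large subunit, were Rpl7 (-0.15 ± 0.04), Rpl7a (-0.17 ± 0.04) and Rpl6 (-0.14 ± 0.04), with edgeR adjusted p-values of 0.0367, 0.0425 and 0.0469. Rpl7a had 717, 688 and 718 normalised CPM in sORF8 virus cells, against 796, 771 and 818 normalised CPM in sORF8 control virus cells. Lower log2 fold changes with wider errors belonged to genes that did not pass, among them Rps13 (-0.31 ± 0.12), Rpl30 (-0.26 ± 0.10) and Rplp1, a P stalk protein (-0.26 ± 0.09), all of which have copies with many counts. With copies summed they were at -0.15 ± 0.07, -0.18 ± 0.06 and -0.17 ± 0.05, and none passed (edgeR adjusted p 0.273, 0.133 and 0.0786).

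A few members did not share the direction. Rps29 and Rps27, zinc-binding proteins of the small subunit, and Rps28 had log2 fold changes of 0.12 ± 0.10, 0.04 ± 0.07 and 0.09 ± 0.08, none past the threshold. Rpl37a, Rpl39 and Rps26 were at 0.02, 0.01 and 0.01. Rpl39, Rps29, Rps28, Rps27 and Rpl37a are among the 8 shortest transcripts of the set. Across the 78 genes the log2 fold change correlated with effective transcript length at a Spearman rho of -0.31, beside 0.05 across the 12604 genes above a log2 CPM of 1. Genes are not independent replicates, and this is a description.

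The sORF8 count changed with the fit more than the median did. Leaving out any 1 of the 6 sORF8 libraries left 0 to 3 called genes of 78 (0 without virus replicate 2, 1 without each of the control virus replicates, 2 without virus replicate 3, 3 without virus replicate 1), where 1.78% to 2.6% of all genes were called, with medians of -0.13 to -0.10. The 6 libraries of the experiment fitted alone gave 34 (5.48% of all genes called), removing the trend on length 32 (6.03%), and leaving out the 2 control libraries of the other experiments that stood apart 26 (6.48%), all lower, with medians of -0.11 in each.

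**Figure D4:**
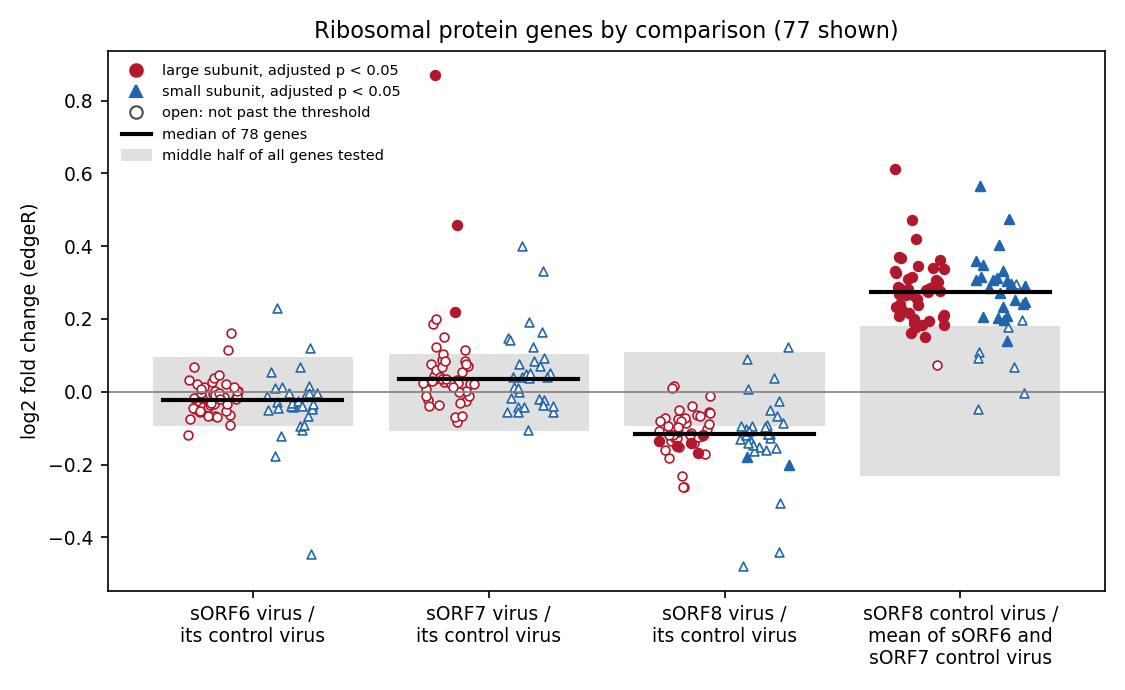
Log2 fold changes (edgeR) of 77 ribosomal protein genes in 4 comparisons, with large subunit genes as red circles and small subunit genes as blue triangles, filled where the adjusted p is under 0.05. Black lines are medians of 78 genes, grey boxes span the interquartile range of all genes tested, and Rpl35a is not drawn. The medians are -0.02 for sORF6 virus, 0.03 for sORF7 virus, -0.12 for sORF8 virus and 0.27 for sORF8 control virus against the mean of the other control groups.

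With sORF8 virus the counts for other genes of the same machinery stand beside the 1.72% of all genes that fell, the 2.03% that rose and the 8.33% lower at an unadjusted p under 0.05. The share of all genes higher at an unadjusted p under 0.05 is not given here. Of 18 other TOP genes 3 fell and 0 rose, 7 were lower and 0 higher at an unadjusted p under 0.05, and the median was -0.09: Npm1, a nucleolar chaperone of ribosome assembly (-0.20, edgeR adjusted p 0.00751), and Eef1b2, the exchange factor for eEF1A (-0.22, edgeR adjusted p 0.0192), had the smallest p. Of 28 initiation factors 3 fell (9 lower and 0 higher at an unadjusted p under 0.05, median -0.07), led by Eif5 (-0.27, edgeR adjusted p 0.000463) and Eif4g2, an initiation factor related to eIF4G (-0.14, edgeR adjusted p 0.00878). Of 48 ribosome biogenesis genes 4 fell (20 lower and 0 higher at an unadjusted p under 0.05), with a median of -0.12, led by Ddx21, a nucleolar RNA helicase (-0.22, edgeR adjusted p 0.00116), and Ncl, nucleolin (-0.16). Of 24 genes of RNA polymerase I and III, subunits and factors together, 0 passed (1 higher and 0 lower at an unadjusted p under 0.05, median -0.02). Of 20 regulators of mTOR and LARP1 1 fell, Myc (-0.25, with 2 of the list lower and 0 higher at an unadjusted p under 0.05). The 75 mitochondrial ribosomal protein genes, which serve the ribosome of mitochondria, had 0 called by edgeR, 6 higher and 1 lower at an unadjusted p under 0.05, and a median of 0.01. Of 14 ribosome quality control genes 1 rose, Rnf10, a ubiquitin ligase of small subunit proteins (0.13), and 0 fell. At an unadjusted p under 0.05, 1 gene of that list was higher and 3 were lower, and its median was -0.03.

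Summed cardiomyocyte markers were 45988 to 47914 normalised CPM in sORF8 virus libraries and 38347 to 38728 in sORF8 control virus libraries, and 5 of 10 rose, led by Myh6 (0.80) and Myl2 (0.45). Fibroblast markers were 7720 to 8116 in sORF8 virus libraries and 7668 to 7835 in sORF8 control virus libraries, with 0 of 9 called by edgeR, also at an unadjusted p under 0.05. Summed endothelial markers were 62.9 to 67.7 in sORF8 virus libraries and 57.9 to 61.6 in sORF8 control virus libraries, without overlap. Of the 7 endothelial markers tested 0 passed, and at an unadjusted p under 0.05 1 was higher and 0 lower. The part of these markers in the ribosomal protein result was not tested.

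As a set, the 78 genes differed most between control groups, which differ only in the experiment they belong to, as far as the labels say. In the joint edgeR test of the 3 control groups 68 of 78 members passed, beside 38.4% of all genes tested. With copies summed it was 71 of 77 proteins, beside 38.7%. The contrast behind it was chosen after seeing the data: sORF8 control virus against the mean of the sORF6 and sORF7 control groups had 68 members higher and 1 lower, where 21.5% of all genes were higher and 21.3% lower. The median log2 difference was 0.27, a 1.21-fold higher level. The same sORF8 control libraries are the reference for sORF8 virus and enter each difference of responses that involves sORF8. These results are therefore not independent. All sORF8 control libraries lay above all 6 other control libraries for 64 of 78 members, beside 18.4% of all genes. With copies summed 71 of 77 proteins were higher and 0 lower, beside 43% of all entries called in either direction. The 1 lower gene was Rpl35a, listed at 0 in all sORF8 control libraries and in 1 sORF6 control library. Between the sORF6 and sORF7 control groups 0 of 78 differed, beside 1 of 14870 genes (0.00672%). At an unadjusted p under 0.05, 0 members were higher and 12 lower in the sORF6 control group, beside 3.91% of all genes higher and 4.48% lower. Their median log2 difference was -0.06, beside -0.00 over all genes, and 71 of 78 were below 0 (51% of all genes).

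Rps2, Rpl4 and Rpl6 had the smallest p among the control groups. Rps2 had 1782, 1761 and 1819 normalised CPM in sORF8 control virus libraries, against 1201, 1309 and 1227 in sORF6 control virus libraries and 1225, 1345 and 1418 in sORF7 control virus libraries. All 3 values lay above the other 6, with a log2 difference of 0.47 ± 0.04 and an edgeR adjusted p of 1.95e-08 in the joint test. Rpl4 had 1079.9, 1087 and 1111 in sORF8 control virus libraries, against 868, 917 and 858 and 877, 919 and 929.9 in those of sORF6 and sORF7 (log2 difference 0.29 ± 0.03, edgeR adjusted p in the joint test 2.57e-07). Rpl6 differed by 0.34 ± 0.03 (edgeR adjusted p 4.6e-07). The largest log2 differences belonged to Rpl38 (0.61 ± 0.10) and Rps13 (0.57 ± 0.11), which were 0.27 and 0.31 with copies summed, and Rps29, Rps27 and Rps28 had the smallest, -0.05, -0.00 and 0.07, none past the threshold.

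Among the virus groups the sORF8 libraries were highest as well. sORF8 virus against the mean of the other virus groups, also chosen after seeing the data, had 42 of 78 members higher and 0 lower, beside 15.7% and 15.9% of all genes, with a median log2 difference of 0.15. Over the 6 groups, sORF8 control virus had the highest mean for 69 of 78 members and sORF6 virus the lowest for 53. This was counted over the members only, so no share of all genes stands beside it. Of all genes, 21.5% were higher and 21.3% lower in the sORF8 control group than in the other control groups. The experiment and any difference in preparation, cells or sequencing between the experiments cannot be told apart.

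Genes around the ribosome were higher in the sORF8 control group as well, where 21.5% of all genes were higher and 21.3% lower. Of 48 ribosome biogenesis genes 40 were higher and 0 lower (median log2 difference 0.36), among them Rrp12, a ribosome export factor (0.84), and Ddx21 (0.57). Of 28 initiation factors 20 were higher and 0 lower (median 0.23), and of 18 other TOP genes 13 were higher and 3 lower (median 0.17). Of 24 genes of RNA polymerase I and III, subunits and factors together, 11 were higher and 0 lower (median 0.22). Of 20 regulators of mTOR and LARP1 7 were higher and 3 lower (median 0.07): Myc (0.84) and Larp1, the TOP-binding protein (0.26), had the smallest p, and the 3 lower genes were Eif4ebp1, an inhibitor of eIF4E (-0.28), Rptor, a subunit of mTORC1 (-0.18), and Rps6ka2, a kinase (-0.19). Of 14 ribosome quality control genes 8 were higher and 3 lower (median 0.15), led by Abce1, a ribosome recycling factor (0.38), and Rnf10 (-0.30). Of 75 mitochondrial ribosomal protein genes 4 were higher and 21 lower, with a median of -0.04. Their share higher was well below that of all genes, and their share lower somewhat above it. All 10 cardiomyocyte markers were lower, with a median of -0.63. Their summed levels were 38347 to 38728 normalised CPM in sORF8 control virus libraries, against 57581 to 64861 in the other control libraries. Of 9 fibroblast markers 4 were lower and 0 higher. Of 4 erythroid markers tested 3 were lower and 0 higher, and of 7 smooth muscle markers 2 were lower and 1 higher. Of 7 endothelial markers tested 2 were higher and 0 lower, and of 8 leukocyte markers tested 1 was higher and 0 lower. The part of these markers in the result was not tested.

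Genes with and without a TOP start at the annotated base had similar medians. The median log2 difference of sORF8 control virus from the other control groups was 0.27 over the 24 genes with a C and at least 4 pyrimidines at the annotated start, and 0.28 over the 38 without. With sORF8 virus, measured against the same sORF8 control libraries, the medians were -0.10 and -0.12. The split depends on the exact annotated base: Rpl27a and Rps23, with a run of 19 pyrimidines that begins with a T, count as without. It therefore does not separate genes with a pyrimidine tract from genes that lack one. These are descriptions of annotated starts and say nothing of LARP1 or mTOR.

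**Figure D5:**
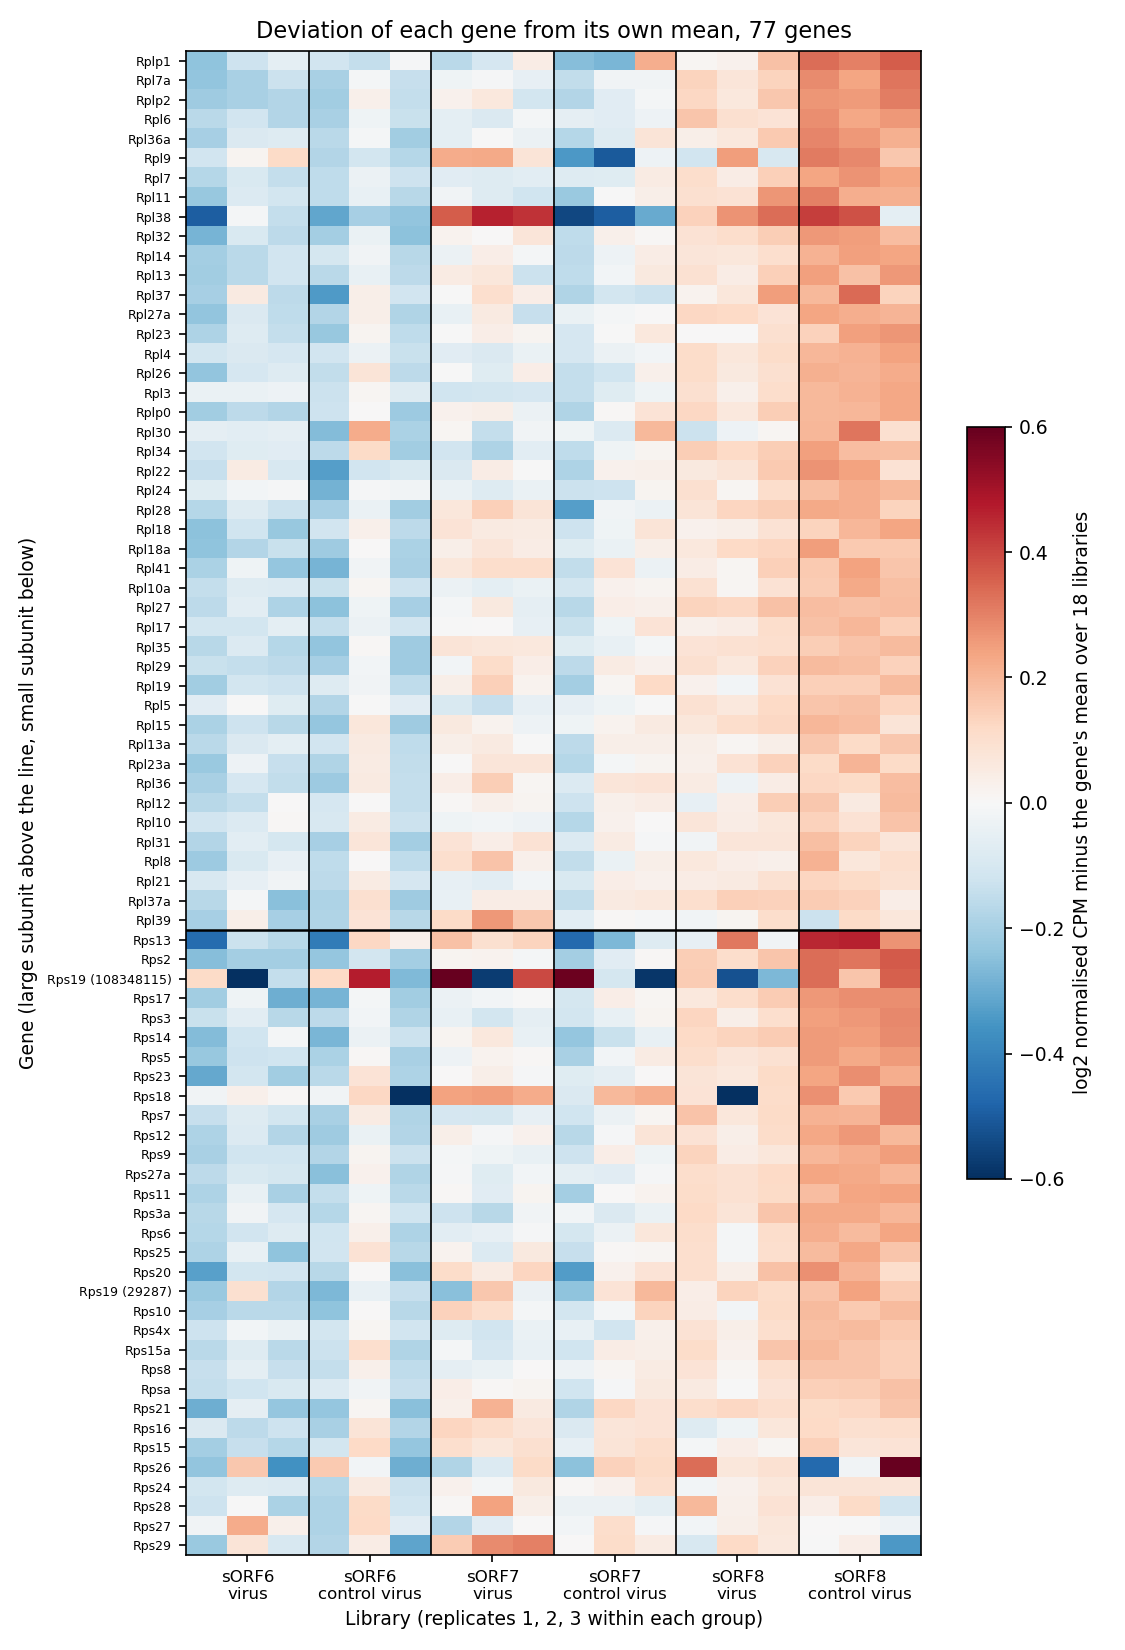
Log2 normalised CPM of 77 ribosomal protein genes (Rpl35a is not drawn) in 18 libraries, as the difference from each gene's own mean, with colours that stop at -0.6 and 0.6. Genes are sorted within each subunit by the sORF8 control virus mean. Most genes are red in the sORF8 control virus libraries and blue in the sORF6 libraries other than control virus replicate 2, while Rps26, Rps18 and the second Rps19 gene change from library to library.

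Replicates of a group differed by a few percent for most members. Their median coefficient of variation between replicates was 4.64%, beside 3.27% over 2148 other genes above 100 normalised CPM, a set not matched to the members in level. The widest were Rpl35a, the second Rps19 gene (31.3%), Rps26, near the mRNA exit (18.9%), Rps18 (15.9%) and Rps13 (11.6%). The second Rps19 gene had 105, 36.8 and 72.2 normalised CPM in sORF7 virus cells, against 82.7, 50.8 and 36.4 normalised CPM in sORF7 control virus cells, while both Rps19 genes and copies summed had 319, 322 and 321 normalised CPM in sORF7 virus cells, against 298, 321 and 329 normalised CPM in sORF7 control virus cells, a much narrower spread.

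The responses to the 3 viruses were compared as differences of log2 fold changes. Between sORF6 and sORF7, 2 members differed, both lower for sORF6, 2.56% beside 6.27% of all genes lower and 4.88% higher: Rpl38 (-0.82 ± 0.16, edgeR adjusted p 0.00195) and Rps13, a small subunit protein that bridges to the large subunit (-0.58 ± 0.18, edgeR adjusted p 0.0427). Rps13 had 107, 135 and 131 normalised CPM in sORF6 virus cells, against 110.2, 160.4 and 150.5 normalised CPM in sORF6 control virus cells, and 167, 157 and 162 normalised CPM in sORF7 virus cells, against 106, 122 and 139.5 normalised CPM in sORF7 control virus cells. With copies summed 0 of 77 proteins differed, beside 11.2% of all entries.

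Between sORF6 and sORF8 0 members differed, beside 0.868% of all genes higher and 2.82% lower, although 9 had an unadjusted p under 0.05 (6.14% of all genes in that direction). The median over 78 was 0.09, beside 0.00 over all genes. Without sORF6 control virus replicate 2 the count called was 7, beside 3.91% of all genes in that fit, and without sORF8 virus replicate 2 it was 1, beside 2.95%. The smallest p belonged to Rpl3 (0.16 ± 0.05), Rps3 (0.17 ± 0.06) and Rpl9 (0.39 ± 0.14), with edgeR adjusted p-values of 0.0948, 0.158 and 0.162.

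Between sORF7 and sORF8 4 members differed, all higher for sORF7, 5.13% beside 3.8% of all genes higher and 3.92% lower: Rpl38 (0.88 ± 0.16), Rps2 (0.29 ± 0.06), Rpl9 (0.69 ± 0.14) and Rps13 (0.71 ± 0.18), with edgeR adjusted p-values of 0.00172, 0.00437, 0.00467 and 0.0177. The median over 78 was 0.16, and 74 of 78 were above 0 (49.8% of all genes). With copies summed 5 proteins differed, beside 7.85% of all entries: Rps2 (0.29 ± 0.06), Rps18, Rpl7a, Rplp1 and Rpl28, so that Rps2 was the 1 protein called in both forms. Without sORF7 control virus replicate 3 the count was 14, beside 7.45% of all genes in that fit.

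Fau, which carries a small subunit protein fused to a ubiquitin-like domain, and Rack1, a scaffold on the small subunit, are ribosomal proteins that the symbol rule leaves out. Both were higher in the sORF8 control group (log2 differences 0.25 and 0.21, edgeR adjusted p 0.00365 and 0.00443). With sORF8 virus they had log2 fold changes of -0.14 and -0.12, and by edgeR neither passed against the control virus in any experiment.

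Of the paralogs, 7 were tested. Rpl7l1 was lower with sORF8 virus (-0.17, edgeR adjusted p 0.0113) and, with Rpl22l1, higher in the sORF8 control group (0.40 and 0.52), while Rps4y2 was lower there (-0.39). Rpl10l was the 1 paralog to fall with sORF6 virus, with a log2 fold change of -0.38 (edgeR adjusted p 0.00446). It had 5562 counts over all libraries, against 237972 for Rpl10, and was not among the copies summed with Rpl10. Whether counts were divided between these genes was not tested. Rps27l, Rpl36al and Rpl39l did not pass in these comparisons, with sORF8 virus values of -0.11, -0.02 and -0.37. Rpl3l, the striated muscle paralog of Rpl3, had 37 counts over all 18 libraries and was not tested.

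The authors' deposited table calls many more members. At its q-value under 0.05 it has 5 members higher and 34 lower with sORF6 virus (8.89% and 13% of all genes with a q-value), 47 higher and 4 lower with sORF7 virus (17% and 10.4%), and 1 higher and 69 lower with sORF8 virus (9.44% and 13.2%). Its median log2 fold changes over the members were -0.03, 0.06 and -0.13, beside -0.01, 0.02 and -0.01 over all genes with a q-value.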

How the data were processed

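Libraries were grouped by title. The authors deposited 1 table with estimated counts, FPKM, log2 fold changes and q-values per gene. Per the submitters' processing notes, the tools include HISAT2 2.0.4, RSEM 1.2.12 and DESeq2 1.4.5, on build Rnor_6.0, while the q-value columns are headed degseq, per the file headers. The sources used here do not say whether counting used strand, so reads of overlapping antisense genes cannot be told apart. FPKM follow the deposited estimated counts divided by a length that varied by a median of 1.00 times between libraries.

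Counts were rounded, then edgeR 4.0.16 (R 4.3.3) was run on them (filterByExpr with 6 groups, 14870 genes kept, TMM, 1 mean per group over 18 libraries, 12 residual degrees of freedom, common coefficient of variation 6.90%). P-values are two-sided and Benjamini-Hochberg adjusted over all genes tested, and calls are at 0.05. Alternatives used limma 3.58.1 on log2(FPKM + 1) and log2(FPKM + 0.1), DESeq2 1.42.0 and others below. The tests were tested on simulated data. Of 78 members, 75 matched RefSeq by gene ID, 59 with a promoter. Members and gene lists were chosen with earlier results of these data known. Named genes were, per comparison with a control, up to 8 called members of smallest p, or the 3 of smallest p where fewer than 3 were called, the 3 of smallest p in each other test, and the 4 highest and 4 lowest levels. Genes named outside this rule, and copies, were chosen after their values were seen.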

Additional observations from a re-analysis of the deposited data

Results flagged for a closer look

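The response of 4 genes differed between experiments by the edgeR test of the difference itself, 6 differences in all. Rpl38 responded lower to sORF6 than to sORF7, by a log2 difference of -0.82, and higher to sORF7 than to sORF8, by 0.88. Rps13 did likewise, with -0.58 between sORF6 and sORF7 and 0.71 between sORF7 and sORF8. Rpl9 responded higher to sORF7 than to sORF8 by 0.69, and Rps2 by 0.29. With copies summed, the sORF7 minus sORF8 differences were 0.30 for Rpl38, 0.21 for Rps13 and 0.06 for Rpl9, with edgeR adjusted p-values of 0.151, 0.193 and 0.599, while Rps2 stayed at 0.29 (edgeR adjusted p 0.00392). No group has more than 3 libraries, so single libraries were not tested as outliers.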

How the results depend on the processing

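Counts of called members out of 78 depended on the fit. Removing a trend on transcript length gave 1 for sORF6, 8 for sORF7 (4 of them lower) and 32 for sORF8, where 4.51%, 9.85% and 6.03% of all genes were called. For sORF7 that was 10.3% of the members, near the share of all genes. The differences sORF6 against sORF7, sORF6 against sORF8 and sORF7 against sORF8 gave 10, 21 and 19. Those are 12.8%, 26.9% and 24.4% of the members, beside 12.8%, 5.17% and 10.2% of all genes. DESeq2 size factors in edgeR gave 7 for sORF7 against sORF8, beside 7.81% of all genes. The 6 sORF8 libraries alone gave 34, beside 5.48%. With the replicate number as a block 5 were called for sORF7 and 11 for sORF8, beside 6.87% and 3.09% of all genes. Same-numbered virus and control libraries deviated together with correlations of -0.02 to 0.105, and 4 of 9 virus libraries correlated best with their own number. With 3 libraries a group, this check cannot decide whether the numbers pair them. The block changed no other count of called members by over 1.5 times. With copies summed 1 was called for sORF7 and 0 for sORF6 against sORF7, beside 7.77% and 11.2% of all entries, and Rpl9's log2 fold change with sORF7 virus turned to -0.042. Without sORF6 control virus replicate 2 and sORF7 control virus replicate 1 the count was 26 for sORF8, beside 6.48% of all genes. For the 3 differences it was 5, 14 and 8, beside 10.8%, 4.92% and 9.18%. Leaving out 1 replicate at a time gave 2 to 5 for sORF7 (4.57% to 6.42% of all genes called) and 0 to 3 for sORF8 (1.78% to 2.6%). It gave 1 to 5 for sORF6 against sORF7 (8.56% to 11.3%), 0 to 7 for sORF6 against sORF8 (2.75% to 3.91%) and 3 to 14 for sORF7 against sORF8 (5.33% to 7.45%). The cause was not tested. For sORF6 the count stayed at 0 in all alternatives but the length trend. The joint control test kept 62 to 72 of 78 genes (71 of 77 proteins with copies summed), where 27.6% to 44.2% of all genes were called. The sORF8 median stayed between -0.13 and -0.10 in all alternatives run. Copies, the 2 control libraries and the control contrasts were chosen after seeing the data. At 3 libraries a group and a median standard error of 0.06 per gene, single-gene steps of the sORF8 size lie near the limit of detection.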
